A study of Mus musculus with 8 samples.

Results

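The 10 genes described here, Atf4, Atf5, Ddit3, Ddit4, Asns, Chac1, Trib3, Sesn2, Xbp1 and Hspa5, are transcription factors, enzymes and a chaperone of the integrated stress response and the unfolded protein response. They were chosen by name, by matching the gene symbol, and each matched 1 of the 27179 genes in the expression table. Of the 10, 9 reached a mean of 0.5 RPKM (reads scaled by transcript length and library total) over all libraries and were among the 12605 genes tested. Chac1 lay under that minimum and is described by its reads.

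RNA sequencing covered 8 libraries of CD4+ T cells sorted from mouse spleen, 2 in each of 4 groups that cross parental exposure with stimulation. All mice were 8 weeks old and of the strain C.Cg-Foxp3tm2Tch/J, so every group carries the Foxp3-GFP reporter allele. Cd offspring came from parents that drank 10 ppm CdCl2 during mating and pregnancy, and control (Ctr) offspring from parents on unspiked water. Unstimulated (Unstim) cells were lysed at 0 h and stimulated (Stim) cells after 16 h with anti-CD3/CD28 beads. No group was cultured for 16 h without beads, so stimulation and time in culture cannot be told apart. Replicates are numbered 6 and 7 in each group. Neither the labels nor the methods say whether each is 1 animal or a pool, which sex was sequenced, or whether stimulated and unstimulated libraries of the same number come from the same animal. The libraries were treated as independent, and a p-value measures only the spread between these libraries. In bulk samples such as these, fewer cells of a type and less RNA per cell cannot be told apart.

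The integrated stress response starts at 4 kinases that phosphorylate the translation factor eIF2α when amino acids, heme or protein folding capacity run short, or when viral RNA is present. General translation then falls, while the mRNA of ATF4 is translated better, and ATF4 switches on genes for amino acid supply, tRNA charging and, when stress lasts, CHOP (the product of Ddit3). The unfolded protein response adds 2 more sensors in the endoplasmic reticulum (ER): IRE1 (Ern1), which splices Xbp1 mRNA, and ATF6, and both raise ER chaperones such as BiP (the product of Hspa5). T cells that leave quiescence grow and take up amino acids, and ATF4 is known to take part in that metabolic shift. ATF4 translation and Xbp1 splicing cannot be read from values per gene, so the levels below are those of the mRNAs alone.

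Promoter windows from RefSeq (GRCm38.p6), 250 bases before to 50 after each annotated start, were found for all 10 genes (11 windows, since Atf5 has more than 1). They were searched on both strands for the core of the C/EBP-ATF response element (CARE), TGATGNAA, for the ER stress element, CCAAT and CCACG with 9 free bases between them, and for the UPR element, TGACGTGG. The CARE core was in 3 of the 10 genes, Asns, Chac1 and Trib3, and in 3.97% of all 32851 windows. The ER stress element was in Hspa5 only among the members and in 0.119% of all windows. The UPR element was in none of the 11 windows and in 0.676% of all windows. These matches are descriptions of letters and not binding sites. The stretches that hold a match are shown on the strand of the gene, with the matched bases in capitals, because the RNA of these 4 genes took unlike courses after stimulation. The Asns stretch is chr6:7693210-7693289 (minus strand), the Chac1 stretch chr2:119351012-119351091 (plus strand), the Trib3 stretch chr2:152344031-152344060 (minus strand, the first 30 transcribed bases) and the Hspa5 stretch chr2:34771970-34772089 (plus strand). The CARE core lies on the strand of the gene in Asns and on the opposite strand in Chac1 and Trib3.
Asns: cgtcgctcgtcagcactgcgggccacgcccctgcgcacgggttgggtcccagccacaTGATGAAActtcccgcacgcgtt
Chac1: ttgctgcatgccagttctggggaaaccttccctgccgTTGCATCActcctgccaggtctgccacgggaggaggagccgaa
Trib3: agattagctcaggtTTACATCAgccgggcg
Hspa5: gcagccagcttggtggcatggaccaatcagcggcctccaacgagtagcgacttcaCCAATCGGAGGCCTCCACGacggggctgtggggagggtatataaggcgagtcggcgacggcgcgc

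Depth was 15542732 to 25486791 reads counted on genes per library, and replicates of a group correlated at Pearson r of 0.983 to 0.990 across tested genes. The label CD4+ T cell was checked with marker lists. The 7 CD4+ T cell genes summed to 1447 to 2200 RPKM per library, against at most 1.10 RPKM for 5 plasma cell genes, 2.06 for 5 myeloid genes (S100a8 at 0) and 1.72 for 4 erythroid genes (Hba-a1 and Hba-a2 at 0), while 5 CD8 and NK cell genes summed to 15.1 to 26.7 RPKM. Of 4 regulatory T cell genes, 2 that activated T cells also express were called higher after stimulation, while the lineage genes Foxp3 (group means 4.60 to 7.45 RPKM) and Ikzf2 (2.44 to 3.15 RPKM) were not called. All 6 activation genes were called higher after stimulation in both exposure groups. Of 10 immediate early and heat shock genes that respond to cell handling, 7 were called lower and 1, Atf3, higher after stimulation in each exposure group, with sums of 2133 to 2805 RPKM in unstimulated and 382 to 436 RPKM in stimulated libraries. The 5 metal response genes summed to 16.9 to 19.1 RPKM over all libraries, and none of those tested was called in either comparison of Cd with control. The metallothionein genes Mt1 (at most 0.362 RPKM in a library) and Mt2 (at most 0.212 RPKM) lay under the minimum and were not tested.

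Stimulation was compared within control and within Cd offspring, to ask which genes of the stress response changed between resting cells and cells activated for 16 h. In control offspring, Asns rose and Ddit3 and Ddit4 fell. In Cd offspring, Asns rose and Ddit3 fell, and Ddit4 did not pass. A gene was called when its adjusted p (limma, Benjamini-Hochberg over the 12605 genes) was under 0.01 and its change over 2-fold. By that rule 3 of the 9 tested members were called in control offspring and 2 of 9 in Cd offspring. Of all tested genes, 11.5% were called higher and 7.17% lower in control offspring, and 11.4% higher and 7.24% lower in Cd offspring. The counts of 1 or 2 members in a direction are too few to set the members apart from that background. Fold changes were taken on log2(RPKM + 0.1), so the change of a gene at a low level is understated.

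**Figure D1:**
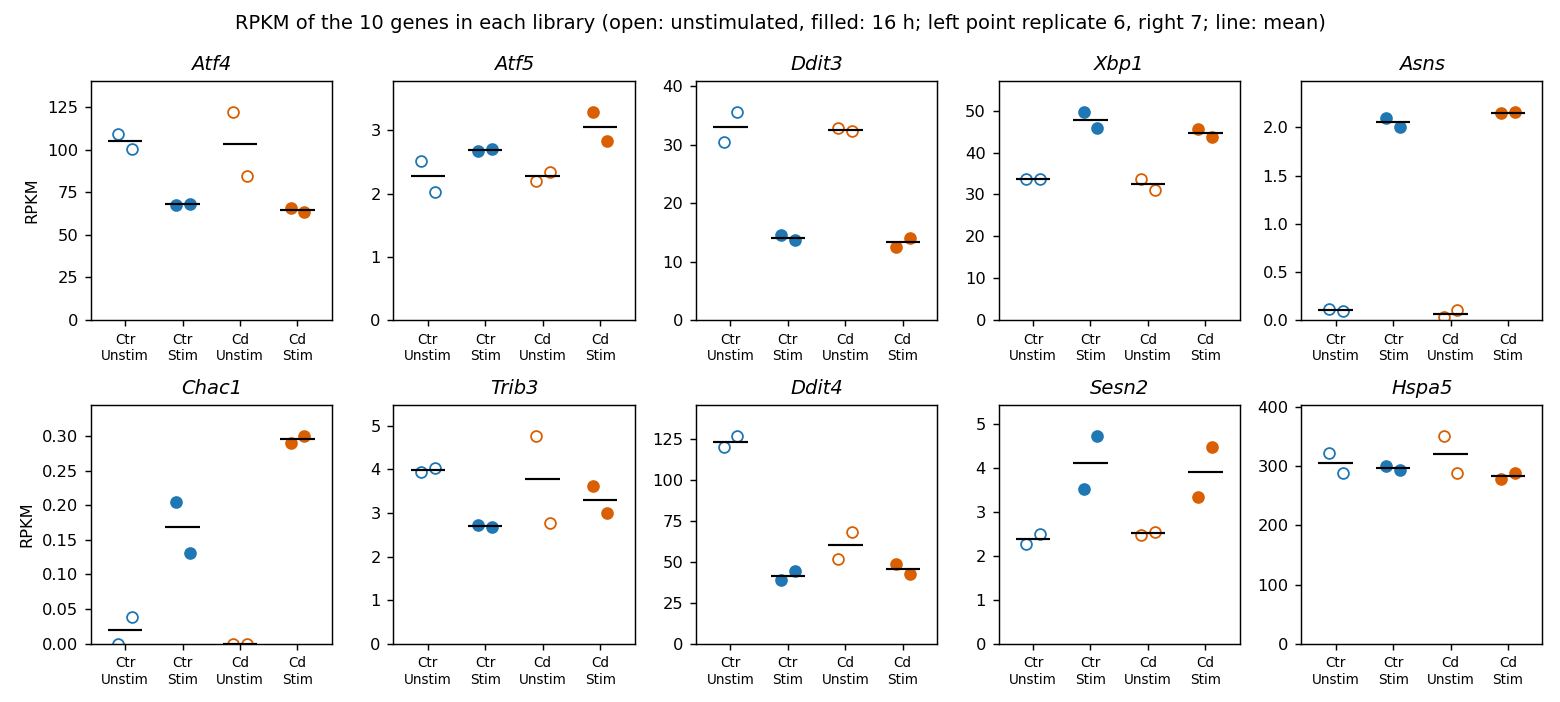
RPKM of each of the 10 genes in the 8 libraries, on axes that start at 0, by group (blue control offspring, orange Cd offspring, open points 0 h, filled points 16 h, left point replicate 6, right point replicate 7, line the group mean). Asns is at or below 0.115 RPKM in the 4 unstimulated libraries and at or above 2.001 RPKM in the 4 stimulated ones, and Ddit4 stands at 120 and 127 RPKM in unstimulated control cells and below 69 RPKM in each of the other 6 libraries.

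Asns (Entrez 27053, chr6:7675165-7693209, GRCm38.p6 as for all genes) encodes asparagine synthetase, which makes asparagine from aspartate and glutamine and is a much used readout of ATF4 activity. It showed the largest change of the 9 tested members. Its level was 0.115 and 0.0955 RPKM in the Ctr Unstim libraries (4 and 3 reads) and 2.10 and 2.001 RPKM in the Ctr Stim libraries (63 and 75 reads). In Cd offspring it was 0.0267 and 0.101 RPKM unstimulated (1 and 4 reads) and 2.15 and 2.16 RPKM stimulated (91 and 106 reads). Every stimulated library was thus above every unstimulated one, and the 4 unstimulated libraries held only 12 reads in all. From the summed reads, the level was 19.3-fold higher after stimulation in control offspring (95% exact binomial interval 9.13 to 48.9) and 33.2-fold higher in Cd offspring (14.0 to 103), where the intervals cover counting error only. The fitted log2 fold change was 3.39 ± 0.29 (SE, adjusted p = 3.53e-05) in control and 3.82 ± 0.29 (adjusted p = 1.97e-05) in Cd offspring. These fitted values hang on the pseudocount, and with 1 RPKM in place of 0.1 they were 1.47 and 1.57, both still called.

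Chac1 (Entrez 69065, chr2:119351242-119354326) encodes an enzyme that degrades glutathione and is induced through ATF4 and CHOP. It was near the limit of detection, with 0 and 1 reads in the Ctr Unstim libraries, 5 and 4 in Ctr Stim, 0 and 0 in Cd Unstim, and 10 and 12 in Cd Stim. All 4 stimulated libraries held more reads than any unstimulated one, although the highest level was only 0.300 RPKM. The summed reads gave an 8.82-fold higher level after stimulation in control offspring, with an interval of 1.22 to 387. In Cd offspring, with 0 against 22 reads, the exact binomial interval began at 4.61-fold higher, and a floor of 3 reads over the unstimulated group put the level at 6.17-fold higher. A limma fit with no filter on low values, in which Chac1 entered, called it higher in both exposure groups (adjusted p = 0.00484 in control and 0.000393 in Cd offspring). Its levels were near the pseudocount of 0.1 RPKM, on which these calls hang, and the fit with no filter was not run with another pseudocount.

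Trib3 (Entrez 228775, chr2:152337425-152344060) encodes a pseudokinase that binds ATF4 and CHOP and dampens them. Although its window holds the CARE core like those of Asns and Chac1, its level was not higher after stimulation. It stood at 3.93 and 4.04 RPKM in Ctr Unstim, 2.73 and 2.68 in Ctr Stim, 4.77 and 2.78 in Cd Unstim, and 3.61 and 3.003 in Cd Stim. The control libraries did not overlap between 0 h and 16 h, whereas the Cd libraries did. Its log2 fold change was -0.54 ± 0.23 (95% interval -1.08 to -0.0025, adjusted p = 0.0727) in control offspring. In Cd offspring it was -0.14 ± 0.23 (-0.68 to 0.40, adjusted p = 0.612), and 0.24 without Cd Unstim replicate 6, the library with the highest level.

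Ddit3 (Entrez 13198, chr10:127290793-127296291) encodes CHOP, the transcription factor linked to cell death when ER stress lasts. It was 30.5 and 35.6 RPKM in Ctr Unstim against 14.5 and 13.6 RPKM in Ctr Stim, and 32.9 and 32.3 RPKM in Cd Unstim against 12.5 and 14.1 RPKM in Cd Stim. The unstimulated libraries were all at more than 30 RPKM and the stimulated ones all at less than 15 RPKM. It fell by 1.22 ± 0.09 on the log2 scale in control offspring (2.34-fold lower, adjusted p = 1.53e-05) and by 1.29 ± 0.09 in Cd offspring (2.44-fold lower, adjusted p = 1.22e-05). Annotated neighbours overlap its ends, Mbd6 by 77 bases and Mars1 by 71 bases, and the strand setting of the counting is not given in the sources used here. Mars1, a tRNA synthetase gene, moved the other way (log2 fold change 1.41 in control and 1.28 in Cd offspring), and Mbd6 the same way (-0.85 and -0.61).

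Atf4 (Entrez 11911, chr15:80255184-80257545) encodes the transcription factor at the centre of the integrated stress response. It was at 109 and 101 RPKM in Ctr Unstim, 67.7 and 68.3 in Ctr Stim, 122 and 84.7 in Cd Unstim, and 65.7 and 63.7 in Cd Stim. Each unstimulated library was above each stimulated one, and the 2 Cd Unstim libraries differed more from each other (SD 26.5 RPKM) than those of any other group (SD 0.443 to 6.11 RPKM). Its mRNA was 1.54-fold lower after stimulation in control offspring (log2 fold change -0.63 ± 0.15, adjusted p = 0.00675). In Cd offspring it was 1.57-fold lower (-0.65 ± 0.15, adjusted p = 0.00552). Both passed the p threshold and neither the 2-fold threshold.

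Atf5 (Entrez 107503, chr7:44812256-44816658) encodes a relative of ATF4 that is likewise translated better under stress and is linked to the mitochondrial unfolded protein response. It stood low. It was 2.51 and 2.03 RPKM in Ctr Unstim, 2.68 and 2.71 in Ctr Stim, 2.20 and 2.35 in Cd Unstim, and 3.29 and 2.84 in Cd Stim. The stimulated libraries were all above the unstimulated ones, yet by little. The log2 fold change was 0.24 ± 0.15 (adjusted p = 0.179) in control and 0.41 ± 0.15 (adjusted p = 0.0384) in Cd offspring, and neither was called. Atf5 overlaps Nup62 by 571 bases, and Nup62 stood far higher (18.3 RPKM unstimulated and 32.9 RPKM stimulated in control offspring), so part of the Atf5 reads may be uncertain where strand was not used.

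Xbp1 (Entrez 22433, chr11:5520641-5525993) encodes the transcription factor that IRE1 activates by splicing. It was 33.8 and 33.8 RPKM in Ctr Unstim, 49.6 and 45.9 in Ctr Stim, 33.8 and 31.2 in Cd Unstim, and 45.7 and 43.7 in Cd Stim. All stimulated libraries lay above all unstimulated ones. The difference was 1.41-fold in control (log2 fold change 0.50 ± 0.06, adjusted p = 0.00025) and 1.37-fold in Cd offspring (0.46 ± 0.06, adjusted p = 0.000392). It passed the p threshold in both exposure groups and was under 2-fold in both.

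Sesn2 (Entrez 230784, chr4:132492804-132510456) and Ddit4 (Entrez 74747, chr10:59949675-59951770) encode Sestrin 2 and REDD1, a pair of proteins that hold back the growth kinase mTORC1, the first when leucine is short and the second under hypoxia, glucocorticoids or energy stress. They moved apart. Sesn2 was 2.26 and 2.49 RPKM in Ctr Unstim, 3.51 and 4.72 in Ctr Stim, 2.48 and 2.53 in Cd Unstim, and 3.34 and 4.46 in Cd Stim. Its stimulated libraries were all higher, though replicate 7 was well above replicate 6 in both stimulated groups. The log2 fold change was 0.75 ± 0.19 (adjusted p = 0.00846) in control and 0.60 ± 0.19 (adjusted p = 0.0219) in Cd offspring, both under 2-fold.

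Ddit4 was at 120 and 127 RPKM in Ctr Unstim, 39.0 and 44.1 in Ctr Stim, 51.7 and 68.2 in Cd Unstim, and 48.3 and 42.5 in Cd Stim. In control offspring the stimulated libraries stood at 0.337 of the unstimulated mean. In Cd offspring both unstimulated libraries lay above both stimulated ones, but the gap was narrow. Ddit4 fell by 1.57 ± 0.13 on the log2 scale in control offspring (2.96-fold lower, adjusted p = 3.07e-05). Its log2 fold change in Cd offspring was -0.39 ± 0.13 (95% interval -0.70 to -0.08, adjusted p = 0.0316) and was not called.

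Hspa5 (Entrez 14828, chr2:34772090-34776529) encodes BiP, the main Hsp70 chaperone of the ER, which keeps the sensors silent when it is free of misfolded proteins. It was the highest of the 10 genes in every group, at 323 and 290 RPKM in Ctr Unstim, 301 and 295 in Ctr Stim, 352 and 289 in Cd Unstim, and 279 and 289 in Cd Stim. Levels of stimulated and unstimulated libraries overlapped in control offspring, and in Cd offspring the highest stimulated library was just under the lowest unstimulated one. The log2 fold change was -0.04 ± 0.10 (95% interval -0.26 to 0.18, adjusted p = 0.735) in control and -0.17 ± 0.10 (-0.39 to 0.06, adjusted p = 0.155) in Cd offspring. Rabepk overlaps Hspa5 by 1921 bases but was at only 8.36 to 10.6 RPKM in the group means.

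**Figure D2:**
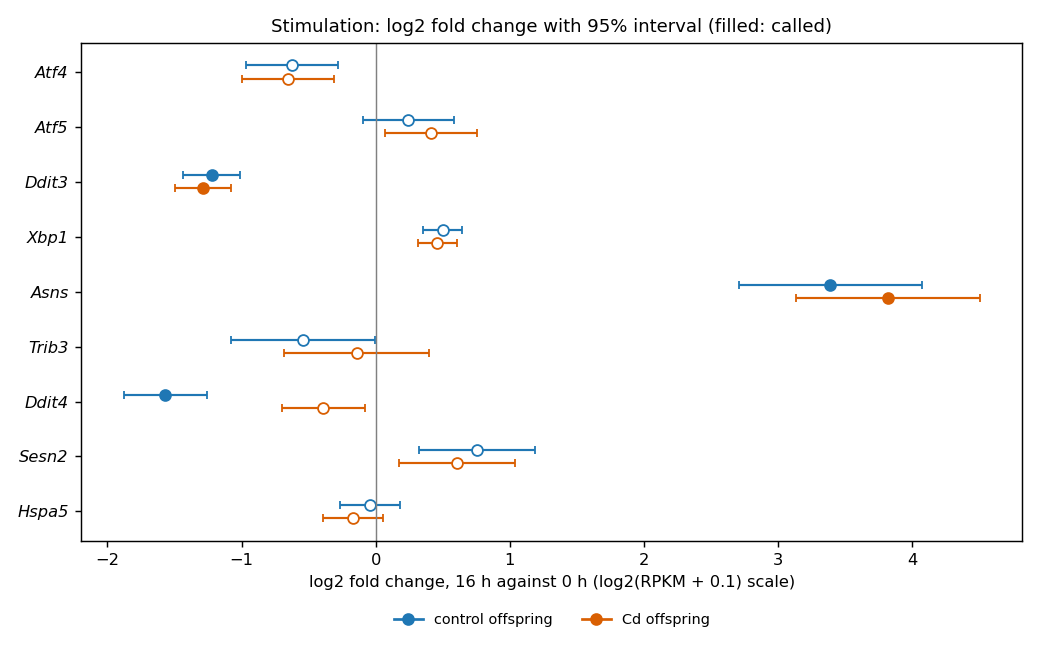
Log2 fold change of stimulated against unstimulated cells for the 9 tested genes, with 95% limma intervals, in control (blue) and Cd (orange) offspring, filled where called. Asns (3.39 and 3.82) and Ddit3 (-1.22 and -1.29) are filled in both, Ddit4 is filled in control offspring only (-1.57 against -0.39), and the intervals of Hspa5 cover 0.

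Per length, the order of the 10 genes in unstimulated control cells was Hspa5 (306 RPKM), Ddit4 (123), Atf4 (105), Xbp1 (33.8), Ddit3 (33.0), Trib3 (3.98), Sesn2 (2.38), Atf5 (2.27), Asns (0.105) and Chac1 (0.0196). Xbp1 and Ddit3 overlapped there, as did Sesn2 and Atf5, and the other neighbours in the order did not. In stimulated control cells Ddit4 stood below Atf4 and Xbp1, at 41.5 RPKM against 68.0 and 47.8 RPKM, and Trib3 (2.71) and Atf5 (2.69) overlapped. In unstimulated Cd cells Ddit4 (59.97 RPKM) was already below Atf4 (103 RPKM), without overlap.

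The genes that share these pathways were described by 10 lists of 111 genes besides the members. Of these, 109 were matched by symbol in the table and 99 of those were tested. Mars1, on the tRNA synthetase list, was not matched by symbol and is left out of the list counts and medians, although the table holds its values. In control offspring 37 of the 99 (37.4%) were called higher after stimulation and 4 (4.04%) lower, beside 11.5% and 7.17% of all tested genes, and the median log2 fold change was 0.61 against 0.07 over all tested genes. In Cd offspring 35 (35.4%) were called higher and 3 (3.03%) lower, beside 11.4% and 7.24% of all tested genes, with a median of 0.60 against 0.05. The lists were chosen with earlier results of these data known, so these shares are descriptions and cannot be weighed against those of all tested genes. They also differed widely from list to list.

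The amino acid list, which holds synthesis enzymes and transporters known as ATF4 targets, had 11 of 14 tested genes called higher in control and 10 in Cd offspring (median log2 fold change 1.62 and 1.51), and none lower. Slc6a9, a glycine transporter, rose by 3.68 and 3.74 on the log2 scale in control and Cd offspring, and Pycr1, an enzyme of proline synthesis, by 3.52 and 3.33. Both started near the pseudocount of 0.1 RPKM, on which these values hang. Unstimulated means in control and Cd offspring were 0.062 and 0.031 RPKM for Slc6a9 and 0.110 and 0.163 RPKM for Pycr1. Of the aminoacyl-tRNA synthetases matched by symbol, 10 of 11 were called higher in control and 9 in Cd offspring (medians 1.24 and 1.19), led by Iars (1.63 and 1.43) and Wars (1.58 and 1.42). Mars1, which is not in these counts, had log2 fold changes of 1.41 and 1.28. These lists moved in the direction of Asns while the Atf4 mRNA itself was lower. Among other ATF4 targets 3 of 5 tested genes were called higher in control and 2 in Cd offspring, with Eif4ebp1, an inhibitor of cap-dependent translation, at 2.15 and 2.26. Gpt2, an alanine aminotransferase, was called in control (1.55) and not in Cd offspring (0.78, adjusted p = 0.0214), and Tnfrsf10b, a death receptor, rose by 1.34 and 1.31. The CARE core was found in 5 of the 8 tRNA synthetase genes that have a promoter window in 3 of 13 amino acid genes and in 4 of 8 other ATF4 targets, against 4.51% of all 27025 genes with a window. Of the 4 other targets that hold it, Herpud1 was not called, and Fgf21, Nupr1 and Vldlr lay under 0.5 RPKM and were not tested. The 5 tRNA synthetase genes that hold it (Aars, Gars, Iars, Tars and Yars) were called higher in control offspring. In Cd offspring Yars was under 2-fold (0.89) and not called, while the others were. Of the amino acid genes that hold it, Pycr1 and Slc1a4 were called higher in both exposure groups, and Slc7a11 was not tested. The core was not found in Cars, Eprs, Lars, Nars and Wars, which were called higher in both exposure groups as well. Nor was it found in Psat1, Phgdh, Shmt2 and Slc7a5, also called higher in both. Others in which it was not found, such as Sars and Slc38a2, were not called. Some listed genes have no promoter window, and the part of the core in these changes was not tested.

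Upstream of Atf4, the 4 eIF2α kinases did not move as one. Eif2ak2 (PKR, activated by viral RNA) had a log2 fold change of -1.003 ± 0.11 in control offspring, where it was called lower just past 2-fold (adjusted p = 0.000138), and -0.84 ± 0.11 in Cd offspring, where it was under 2-fold. The values in control and Cd offspring were -0.80 and -0.84 for Eif2ak3 (PERK, the ER kinase), 0.76 and 0.87 for Eif2ak4 (GCN2, which senses uncharged tRNA), and 0.17 and 0.30 for Eif2ak1 (HRI, the heme kinase), none of them called. Ppp1r15a, which encodes the GADD34 subunit that takes the phosphate off eIF2α again, was the most lowered gene of its list, at -3.76 and -3.62. Eif2b3 and Eif2s1, subunits of the exchange factor eIF2B and of eIF2, rose by 1.34 and 1.30 in control and by 1.21 and 1.14 in Cd offspring. Of the bZIP partners of ATF4, Cebpb fell by 3.41 and 2.93 and Atf3 rose by 1.65 and 1.93. Ppp1r15a, Cebpb and Atf3 are also known as immediate early genes. Most genes of the handling list given above were called lower after stimulation, with Atf3 itself the exception called higher, and the part of cell handling in their levels and in those of Ddit3, Ddit4 and Atf4 was not tested.

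Of the ER sensors, Ern1 (IRE1) had log2 fold changes of 0.03 and -0.03 (adjusted p = 0.834 and 0.859), and Atf6 rose by 1.07 and 1.011. ER chaperones and folding enzymes, the company of Hspa5, had 4 of 18 called higher and 1 lower in each exposure group, with medians of 0.40 and 0.44. Sdf2l1, a cofactor of BiP, rose by 1.89 and 1.92, and the disulfide isomerase gene Pdia6 by 1.21 and 1.10. Dnajb9, a J-domain partner of BiP and a well known XBP1 target, fell by 2.78 and 2.83, in libraries in which Xbp1 mRNA was higher. Among the genes of ER-associated degradation and translocation 0 of 17 was called in control offspring by limma (11 of them with an unadjusted p under 0.05 but under 2-fold, and 0 called by voom), and 1 in Cd offspring, Sec61g, a small translocon subunit (1.05). The mitochondrial chaperone and protease list had 4 of 9 called higher in each exposure group (medians 0.99 and 0.88), with Hspd1 at 2.54 and 2.27 and Hspa9 at 1.70 and 1.63. Of 5 tested relatives of members, 1 was called in each exposure group, Trib1, which rose by 2.10 and 2.37, while the list medians were 0.21 and 0.07.

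**Figure D3:**
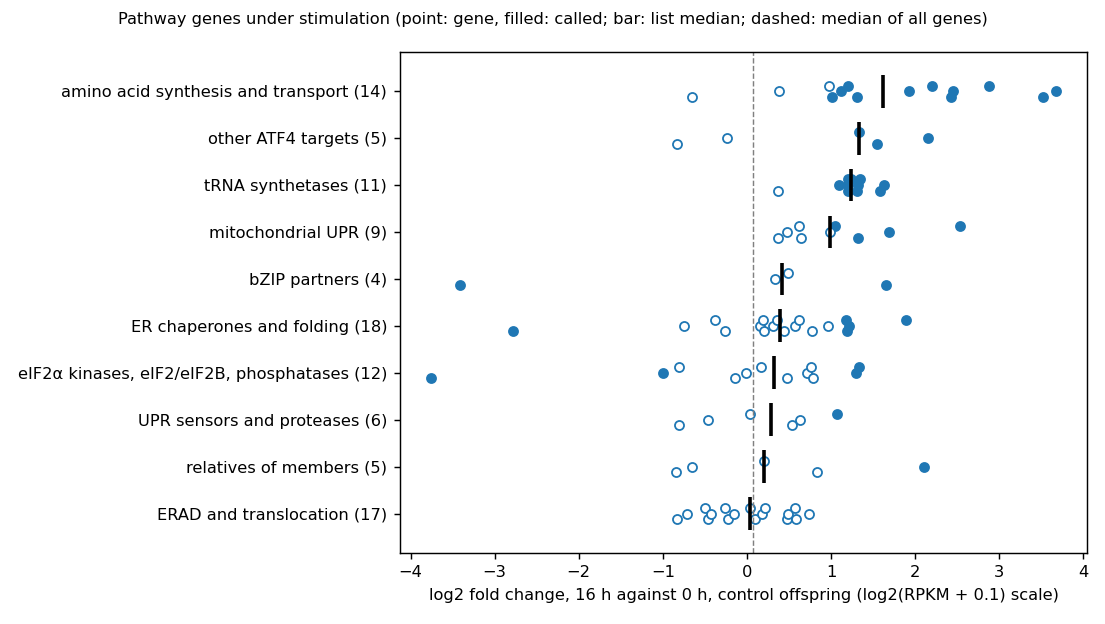
Log2 fold change after stimulation in control offspring for each tested gene of the 10 lists that was matched by symbol (points, filled where called), with the list median (bar), the number tested in brackets and the median of all tested genes (dashed, 0.07). Amino acid genes (median 1.62) and tRNA synthetases (1.24) lie to the right, while the ER degradation and translocation genes (median 0.04) have no filled point.

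Cd offspring were compared with control offspring to ask whether exposure of the parents left a difference in these genes. In unstimulated cells 1 of the 9 tested members was called at an adjusted p under 0.05, and it was Ddit4, which was lower. Of all tested genes 0.135% were called higher and 0.762% lower. Ddit4 was at 51.7 and 68.2 RPKM in Cd against 120 and 127 RPKM in control libraries, both Cd libraries below both control libraries. It was 2.07-fold lower, a log2 fold change of -1.05 ± 0.13 (95% interval -1.36 to -0.74, adjusted p = 0.0187). With 2 libraries a group an exact permutation test cannot go below p = 0.333. The call therefore rests on the limma model, which pools the spread of Ddit4 over the 4 groups and moderates it with that of all tested genes. The call was lost when only the 4 libraries compared were fitted (adjusted p = 0.0598), without the variance trend (0.0970), and without Ctr Unstim replicate 6 (0.117) or 7 (0.0820), and the adjusted p ranged from 0.00015 to 0.117 over all alternatives.

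Other features of the same libraries were set beside the Ddit4 difference. Genes with transcripts under 1000 nt made up 72 of the 96 genes called lower in unstimulated Cd cells. Of the 2071 tested genes of that length 3.48% were called lower, beside 0.762% of all tested genes. Among ribosomal protein genes and copies, 34 of 115 (29.6%) were called lower (median log2 fold change -0.41). The transcript of Ddit4 is 1685 nt long, and among 1513 tested genes of 1500 to 2000 nt the median was -0.01 and 5 were called lower. The immediate early and heat shock list summed to 2799 and 2133 RPKM in the Cd and 2805 and 2687 RPKM in the control libraries. The part of these features in the Ddit4 difference was not tested.

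The other 8 tested members differed by less than the test could call in unstimulated cells. Their log2 fold changes ran from -0.36 (Asns, 95% interval -1.05 to 0.32) to 0.07 (Sesn2, -0.36 to 0.51). The narrowest intervals were those of Xbp1 (-0.20 to 0.09) and Ddit3 (-0.23 to 0.19), and that of Hspa5 was -0.17 to 0.28. For Atf4 the interval was -0.39 to 0.30 and for Trib3 -0.66 to 0.41. Chac1 had 1 read in the control and 0 in the Cd libraries. Of the 99 pathway genes 0 were called by limma and 0 by voom, and 7 had an unadjusted p under 0.05.

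In stimulated cells 0 of the 9 members and 0% of all tested genes were called for Cd against control (lowest adjusted p 0.0978 over all genes), and voom on the recovered reads called 0 as well. None of the 9 members had an unadjusted p under 0.05, against 414 of all tested genes and 2 of the 99 pathway genes. Ddit4 was at 48.3 and 42.5 RPKM in Cd and 39.0 and 44.1 RPKM in control libraries, which overlapped, with a log2 fold change of 0.13 (95% interval -0.18 to 0.44). Asns was at 2.15 and 2.16 against 2.10 and 2.001 RPKM, with a log2 fold change of 0.07 (-0.62 to 0.75). The largest value was that of Trib3, 0.28 (-0.26 to 0.81), and the narrowest interval that of Xbp1 (-0.24 to 0.05). Chac1 had 22 reads in the 2 Cd and 9 in the 2 control libraries, and its difference in the fit with no filter was 0.57 ± 0.22 (unadjusted p = 0.0396, adjusted p = 1).

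The difference in response, the stimulation change in Cd offspring minus that in control offspring, was tested as an interaction. By limma 0 of 9 members were called, while 0.301% of all tested genes were called higher and 0.0555% lower. Ddit4 had by far the largest value, 1.18 ± 0.19 (95% interval 0.74 to 1.61), with an unadjusted p of 0.000317 and an adjusted p of 0.0714. It was the one member with an unadjusted p under 0.05. It was called by voom on the recovered reads (adjusted p = 0.0020) and without Cd Unstim replicate 7 (0.0226), within a range of 0.0020 to 0.261 over all alternatives. This contrast holds the same unstimulated libraries as the comparison of Cd with control above, so the 2 results on Ddit4 are not separate evidence. For Asns the difference was 0.43 (-0.54 to 1.40), for Trib3 0.40 (-0.36 to 1.16) and for Ddit3 -0.06 (-0.36 to 0.23), and 0 of the 99 pathway genes, those that passed in 1 exposure group only included, were called by limma or voom (7 with an unadjusted p under 0.05).

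**Figure D4:**
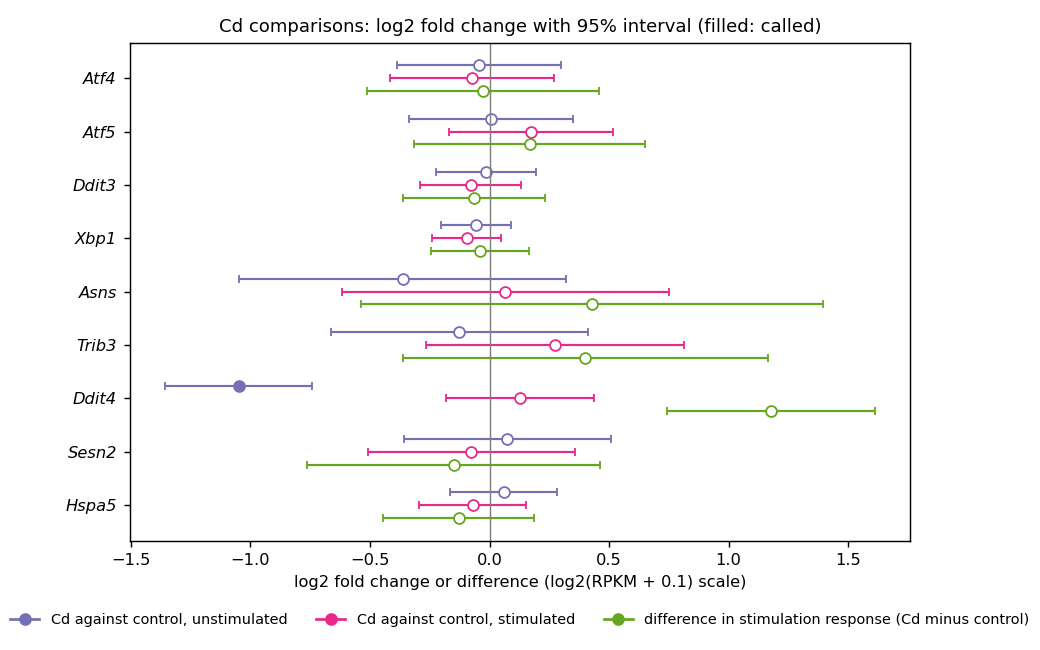
Log2 fold change of Cd against control offspring in unstimulated (purple) and stimulated (pink) cells and the difference in stimulation response (green), with 95% limma intervals, for the 9 tested genes, filled where called. The unstimulated value of Ddit4 (-1.05) is the one filled point, and its difference in response (1.18, adjusted p = 0.0714) is open although its interval lies above 0.

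Likeness of pattern was measured as Pearson's r of log2(RPKM + 0.1) over the 8 libraries, among tested genes with a mean of at least 5 RPKM, and is a description since the 8 libraries share 2 states of stimulation. For Atf4 the closest genes were Actr1a (r = 0.991), Zfp746 (0.991) and Zfp263 (0.989), whose means differed little between groups (Actr1a 45.0 RPKM in Ctr Unstim and 39.4 in Ctr Stim). The closest to Ddit3 were Atg13 (0.998), Fam214a (0.998) and Btbd11 (0.997), and to Chac1 Rad1 (0.984), Arhgap27os3 (0.984) and Polr2j (0.980). Many other genes were nearly as close, with 249 above 0.95 for Atf4, 1499 for Ddit3 and 279 for Chac1. The pattern of Chac1 rests on 0 to 12 reads per library. Hspa5 had no gene above 0.95, and its closest were 9430015G10Rik (0.947), Caml (0.946) and Bet1l (0.922). Ddit4 was added after its values were seen. Its closest genes were the ribosomal protein genes Rps27 (0.983) and Rps21 (0.983), with Glb1 (0.979), and 12 of 8680 genes were above 0.95. Rps27 stood at 184 RPKM in Ctr Unstim, 69.1 in Ctr Stim, 95.5 in Cd Unstim and 85.2 in Cd Stim, with the caution that ribosomal protein genes share reads with many copies.

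Replicates 6 and 7 of a group differed in the 9 tested members by a median of 0.28 on the log2 scale in Cd Unstim, against 0.07 to 0.17 in the other groups. Over all tested genes the median size of that difference was 0.14 in Cd Unstim and 0.08 to 0.10 in the other groups. Within Cd Unstim, replicate 6 was higher for Trib3 (by 0.76), Atf4 (0.53) and Hspa5 (0.28) and lower for Ddit4 (by 0.40 on the log2 scale).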

How the data were processed

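The sample labels gave the groups of the 8 libraries of CD4+ T cells. Alignment to mm10 (Subread) and counting over RefSeq transcripts (featureCounts) were done by the authors, per the labels and the methods. Versions, the strand setting, the treatment of reads with several matches and the step from counts to RPKM are not given in the sources used here. The deposited values are log2(RPKM + 1) + 0.0001, so that log2 values were turned back into RPKM. The steps between values gave back each library's total, each transcript's length and the whole reads of 17794 genes, those detected in 2 or more libraries (within 0.001 reads of a whole number). The recovered totals set the precision of low values. The table also holds 847 rows whose symbol is missing, which stayed in the fit.

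The values log2(RPKM + 0.1) of 12605 genes with a mean of at least 0.5 RPKM entered a limma fit (limma 3.58.1 under R 4.3.3) of 4 group means, moderated with a trend (4 residual degrees of freedom), and adjusted after Benjamini and Hochberg over all of them. Intervals for read ratios are exact binomial at 95%, and the floor is 3 reads. The procedure was tested on simulated data. The other tools were pandas 2.3.3, numpy 2.4.6 and matplotlib 3.10.9 under Python 3.11.15. The members and lists were chosen with earlier results of these data known. All members were named, and of each list up to 2 genes called higher and 2 called lower by size, with the eIF2α kinases, Ern1 and Atf6 always. Tnfrsf10b is named as the second of its list in Cd offspring. Further genes are named where the CARE core is described. Another marker list was examined and is not reported here. Alternatives were other pseudocounts, filters, scalings, blocks, no trend, fewer libraries, and voom on the recovered reads.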

Additional observations from a re-analysis of the deposited data

How the results depend on the processing

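The members called after stimulation were 3 in control and 2 in Cd offspring under all alternatives that were run except no filter, which let Chac1 in and gave 4 and 3. Among the 9 members tested, the calls that changed are those of Ddit4. In unstimulated cells, Cd against control, members called were 0 in place of 1 with only the libraries of the comparison and with no trend, and 0 to 1 with 1 library left out. Genes called there were 113 in the fit reported, 65 with no filter, 52 with only the libraries compared, 14 with no trend, 211 with voom, and 19 to 105 with 1 library left out (19 without Ctr Unstim replicate 6, 67 without Ctr Unstim 7 and 61 without Cd Stim 6 or 7). In stimulated cells genes called were 0, against 9 with no filter, 2 with no trend and 0 to 3 with 1 library left out. For the difference in response genes called were 45, against 28 with no filter, 25 with a replicate block within exposure, 4 with no trend, 111 with voom and 2 to 63 with 1 library left out (2 without Cd Stim 7, 3 without Ctr Stim 6, 27 without Ctr Unstim 6 and 28 without Ctr Stim 7). Members called were 1 with voom and 0 to 1 with 1 library left out. A fit without 1 library assumes that the lone library left varies like the other groups. The cause of these shifts was not tested.

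Directions that turned belong to members that were not called. Quantile normalization gave 0.061 for Hspa5 after stimulation in control offspring, and -0.043 for Atf5 and 0.0019 for Ddit3 in unstimulated Cd against control, where median-of-ratios scaling gave -0.0044 for Atf5. With 1 library left out, the log2 fold change after stimulation ran from -0.12 to 0.040 for Hspa5 in control and from -0.52 to 0.24 for Trib3 in Cd offspring. For Cd against control in unstimulated cells it ran from -0.31 to 0.22 for Atf4, -0.14 to 0.15 for Atf5, -0.13 to 0.095 for Ddit3, -0.12 to 0.0019 for Xbp1, -0.51 to 0.25 for Trib3 and -0.082 to 0.20 for Hspa5. In stimulated cells it ran from -0.16 to 0.0050 for Ddit3 and -0.28 to 0.13 for Sesn2. For the difference in response it ran from -0.29 to 0.24 for Atf4, -0.17 to 0.0465 for Ddit3, -0.098 to 0.0196 for Xbp1, -0.36 to 0.059 for Sesn2 and -0.27 to 0.011 for Hspa5.

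The labels do not say what the replicate numbers 6 and 7 share, and pairing by number did not show in the data (correlations of the differences between replicates, -0.112 to 0.064 between groups). With a replicate block 76 genes were called in unstimulated Cd against control, 1 member among them, and 36 for the difference in response, and the block changed no call of a member. Median-of-ratios scaling moved the median of all genes after stimulation from 0.07 to -0.0062 in control offspring, and quantile normalization to -0.03.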

Other observations

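Of 6 cytosolic heat shock genes chosen after their values were seen, 2 were called higher in unstimulated Cd than control cells. Of all tested genes 0.135% were called higher there, but a count from genes picked on their values cannot be weighed against that share. No test was made of a difference from Hspa5. Hsph1, an Hsp110 that recharges Hsp70 chaperones, was at 48.3 and 59.96 RPKM in Cd against 27.5 and 28.2 RPKM in control libraries (log2 fold change 0.95 ± 0.10, limma adjusted p = 0.00966). Hsp90aa1, the inducible cytosolic Hsp90, was at 162 and 151 against 116 and 120 RPKM (0.40 ± 0.06, adjusted p = 0.0333). Hspa1b was at 18.4 and 19.3 against 11.4 and 11.3 RPKM, with a log2 fold change of 0.73 ± 0.16 that did not pass (adjusted p = 0.128). Hspa1a had a value of 0.71 ± 0.30 (adjusted p = 0.348), and Hspa8 and Dnajb1 had values of 0.13 and 0.07 (adjusted p = 0.433 and 0.481). In stimulated cells Hsph1 was at 104 RPKM in Cd and 105 RPKM in control offspring, and its difference in response was called (-0.97 ± 0.14, limma adjusted p = 0.0462). No alternative fit is given for these heat shock genes, and the number of genes called in these comparisons shifted widely between settings, as given above.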
